A study of Mus musculus with 6 samples.

Results

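The genes described here encode the respiratory chain and ATP synthase of mitochondria, in 3 mouse lung adenocarcinoma cell lines with and without restored p53. Members were the genes whose platform symbol starts with Nduf, Uqcr, Atp5 or Cox followed by a digit, or is Sdha, Sdhb, Sdhc, Sdhd, Cycs or Cyc1. Of the 12393 genes named on the array 92 met this rule, through 171 probe sets. Where a gene had several probe sets, the one brightest on average was read. A level of log2 4 or above on at least 3 arrays was required for testing, which 85 of the 92 members reached, as did 7644 genes in all.

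The lines KPR4, KPR5 and KPR8 came from tumours on the strain background C57/B6-129SvJae, and each was measured once per treatment. The treated culture received 4-OH tamoxifen at 250 nM in ethanol 24 h before RNA was taken, which per the labels reactivates p53. The control culture received ethanol. Both cultures of a line were grown in DME with 10% FBS, so serum and the tumour's own mutations are shared by the groups. Drug and restored p53 always came together, so their effects cannot be told apart. The labels do not say whether a line is 1 clone.

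The respiratory chain moves electrons from NADH (complex I) and succinate (complex II) through coenzyme Q, complex III and cytochrome c to oxygen at complex IV. Complexes I, III and IV pump protons, and the return of these protons through ATP synthase (complex V) drives ATP synthesis. The genes listed above lie in the nucleus, while mitochondrial DNA encodes a few core subunits, which were not analysed here. p53 is known to act on respiration through genes such as Sco2, a complex IV assembly factor, and to release cytochrome c during cell death.

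The known p53 targets Cdkn1a and Mdm2 were higher with the drug in each line, by log2 5.62, 3.50 and 4.78 for Cdkn1a and 3.12, 3.01 and 2.70 for Mdm2 in KPR4, KPR5 and KPR8. Array medians lay between 4.56 and 4.63, and Bacillus subtilis control probe sets, which mark background, did not exceed 2.84. All 9 epithelial markers passed the filter, from Elf3 at 3.65 to 4.43 up to Krt18 at 12.93 to 13.50. With tamoxifen Cldn4 rose by 0.89 (adjusted p = 0.0032) and Cdh1 by 0.30 (adjusted p = 0.046), and Epcam fell by 0.37 (adjusted p = 0.046). Of 9 alveolar or airway markers 2 passed the filter, Abca3 at 6.89 to 8.32 and Aqp5 at 7.23 to 10.11. Of those under the filter, Nkx2-1 and Sftpc did not exceed 2.83 and 3.13, near background in all 3 lines. Foxj1, also under it, had 3.50, 3.74 and 4.41 with tamoxifen, against 2.50, 2.89 and 3.48 with ethanol. Its change with limma run on every gene was 0.93 ± 0.12 (adjusted p = 0.00035). Of 6 fibroblast markers 3 passed the filter. Of 4 endothelial markers 0 and of 7 leukocyte markers 3 passed the filter, namely Cd14, Cd3e and Cd68, while Ptprc, which defines leukocytes, did not exceed 2.05. Cd68 had 4.83, 4.75 and 4.32 with tamoxifen, against 3.66, 3.76 and 3.42 with ethanol, a rise of 1.02 (adjusted p = 0.00020). Cd68 passed the filter only through its tamoxifen arrays, and with limma run on every gene its adjusted p was 0.00047. Cd14 reached 9.23. The part of these markers in the results was not tested. Summed over the leukocyte list, the levels ranged from 25.1 to 28.58 with tamoxifen and from 24.67 to 26.93 with ethanol. Of 6 striated muscle markers 1 passed, Tnnt2.

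Most respiratory chain genes kept nearly the same level when p53 was restored, and 5 of the 8 genes that rose belonged to complex IV or its assembly. Complex IV made up 10 of the genes tested as subunits and 7 as assembly and supercomplex genes. Of the 85 members tested 8 were higher and 2 lower with 4-OH tamoxifen (limma, line and treatment in the model, Benjamini-Hochberg over all 7644 genes, threshold 0.05). Of all genes tested 10.5% were higher and 8.94% lower, together 19.5%, against 11.8% of the members. The 8 that rose were Ndufb6, Ndufb2, Cycs, Cox6c, Cox7c, Cox5a, Cox17 and Cox7a2l, and the 2 that fell were Atp5g1 and Ndufs3. Of the 5 complex IV genes, Cox6c, Cox5a and Cox17 lost their calls when probe sets were averaged. Only Cox6c of these 5 kept its call with any line left out. All 10 moved the same way in each line, and the fold differences were small, between 1.24 and 1.79 for the rises and 1.26 and 1.49 for the falls.

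**Figure D1:**
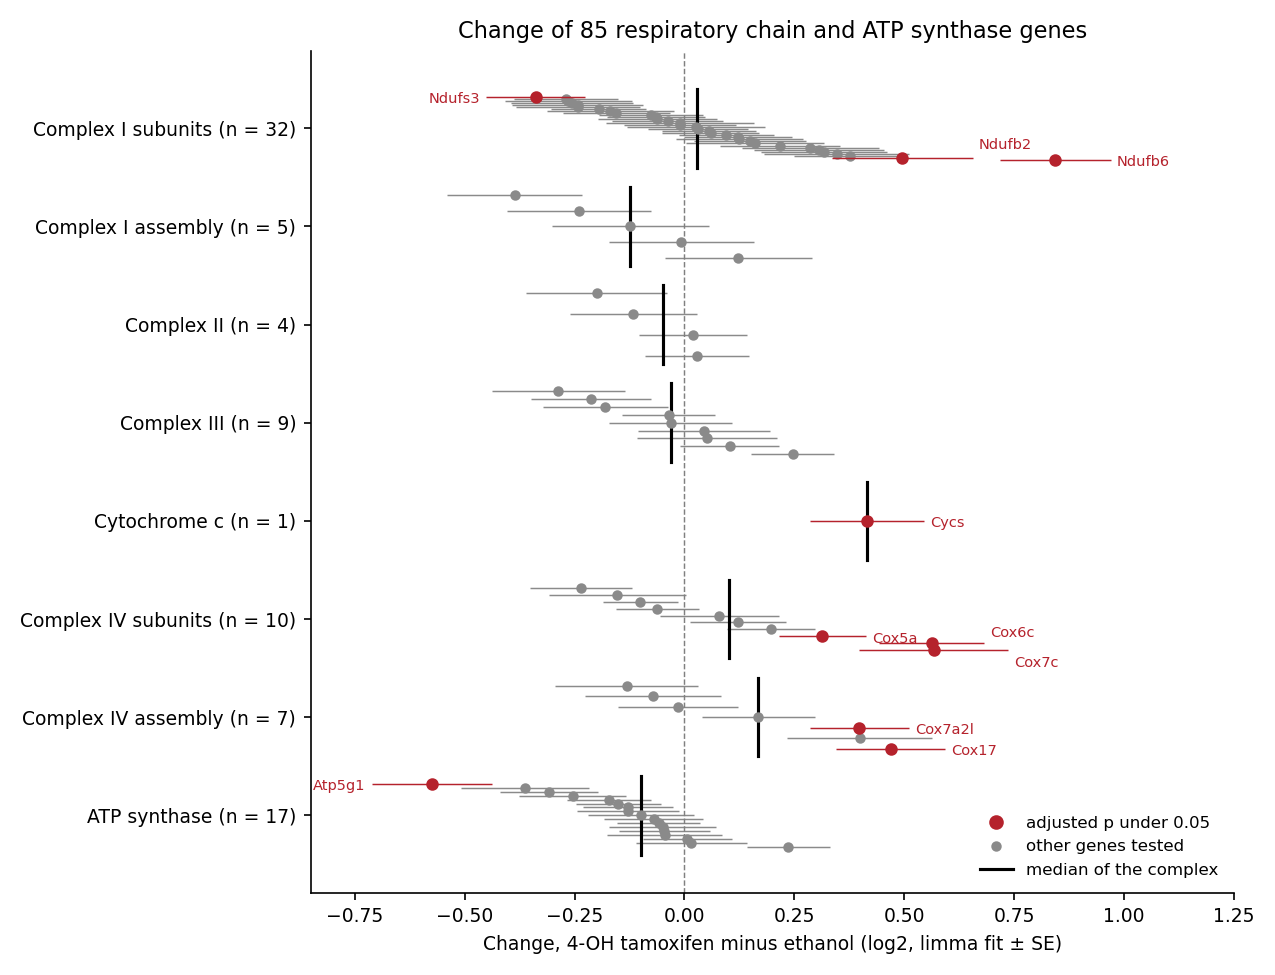
Fitted change with 4-OH tamoxifen minus ethanol on the log2 scale for each of the 85 genes tested, in rows by complex. Points are genes, bars through them are standard errors of the limma fit, black bars are medians, and red marks an adjusted p under 0.05. Ndufb6 lies furthest to the right at 0.84 and Atp5g1 furthest to the left at -0.57, and most genes lie close to 0.

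The median change of the 85 members was -0.03 on the log2 scale, against 0.00 for all genes tested, and the median size of change without regard to sign was 0.15, against 0.21. Changes of log2 0.5 or more were fitted for 4 members, where 16.9% of all genes had one. At an unadjusted p under 0.05 in limma 13 members were higher and 6 lower, where 17.4% and 15.4% of all genes were. In level, 62 members had a mean of log2 9 or above. Of these 12.9% passed the threshold, against 23.6% of the 1993 genes in that range, a limit chosen after the values were seen. The median change was -0.03 in KPR4, 0.05 in KPR5 and -0.08 in KPR8, beside 0.01, 0.03 and -0.04 for all genes.

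Within single lines, where 1 array stands against 1 and no test is possible, few members moved by log2 0.5 or more. In KPR4 6 were higher and 1 lower by that much, where 11.6% and 9.31% of all genes were. In KPR5 4 were higher and 4 lower, where 14.9% and 10.7% were. In KPR8 5 were higher and 6 lower, where 10.5% and 12.9% were. Direction was shared by the 3 lines upward for 18 members and downward for 24, where 26% and 25.7% of all genes did so.

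**Figure D2:**
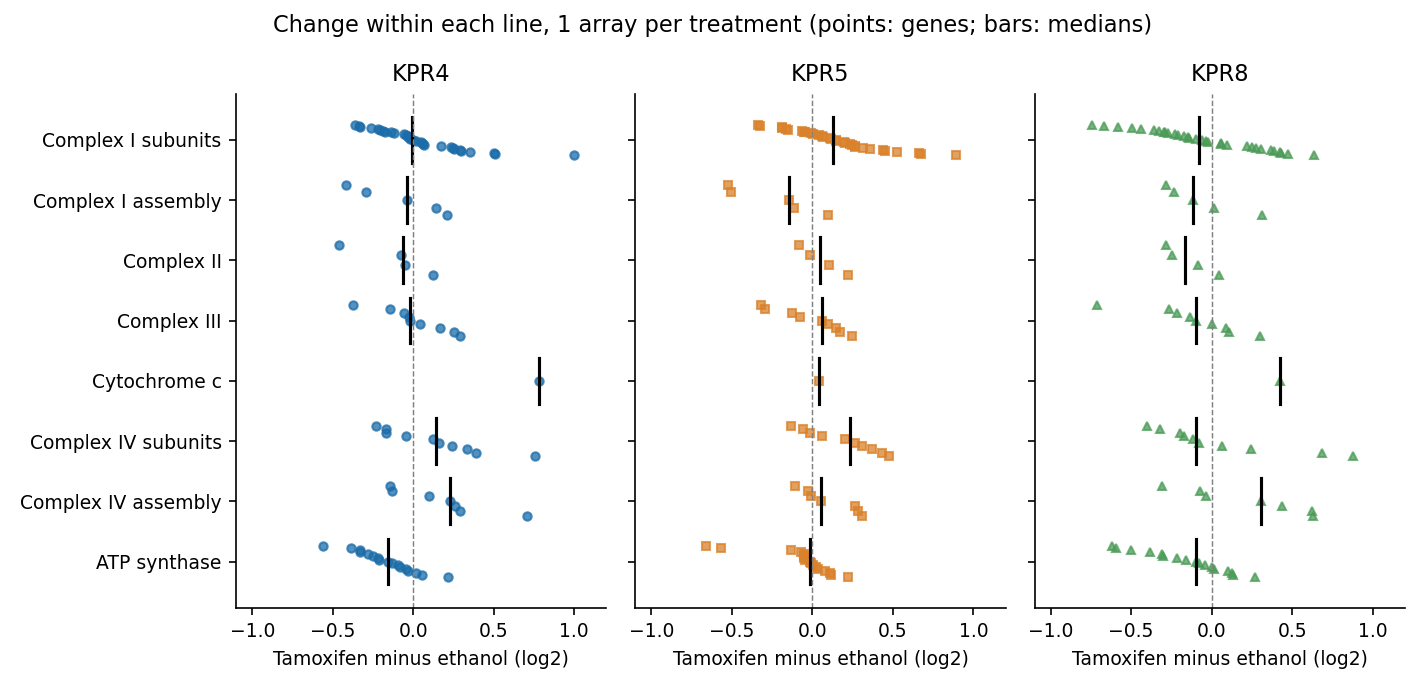
Change with 4-OH tamoxifen minus ethanol within each line on the log2 scale, by complex. Each point is 1 gene read on 1 array per treatment, and black bars are medians. The complex I medians are -0.01 (KPR4), 0.13 (KPR5) and -0.08 (KPR8), and the ATP synthase medians are -0.16, -0.02 and -0.10.

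Complex I, the NADH dehydrogenase, was represented by 33 subunit genes, of which 32 were tested, 2 rose and 1 fell. Together these were 9.38% of the 32, against 19.5% of all genes. Ndufb6, an accessory subunit of the membrane arm, had the largest change of the 85 members tested. Its level was 10.53, 10.59 and 10.49 in KPR4, KPR5 and KPR8 with tamoxifen, against 9.53, 9.70 and 9.85 with ethanol. The groups did not overlap, and the lines were closer to each other with tamoxifen (SD 0.05, n = 3) than with ethanol (SD 0.16, n = 3). The change was 0.84 ± 0.13 (SE), a 1.79-fold rise with an adjusted p of 0.00030. A second probe set, dimmer, gave 0.70, and the call held with any 1 line left out (0.77 to 0.95). For Gapdh, whose control probe sets measure RNA integrity, the 3' signal minus the 5' signal was 0.97, 1.06 and 0.55 in KPR4, KPR5 and KPR8 with tamoxifen, against 0.73, 0.77 and 0.95 with ethanol. The part of RNA integrity in the change of Ndufb6 was not tested.

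**Figure D3:**
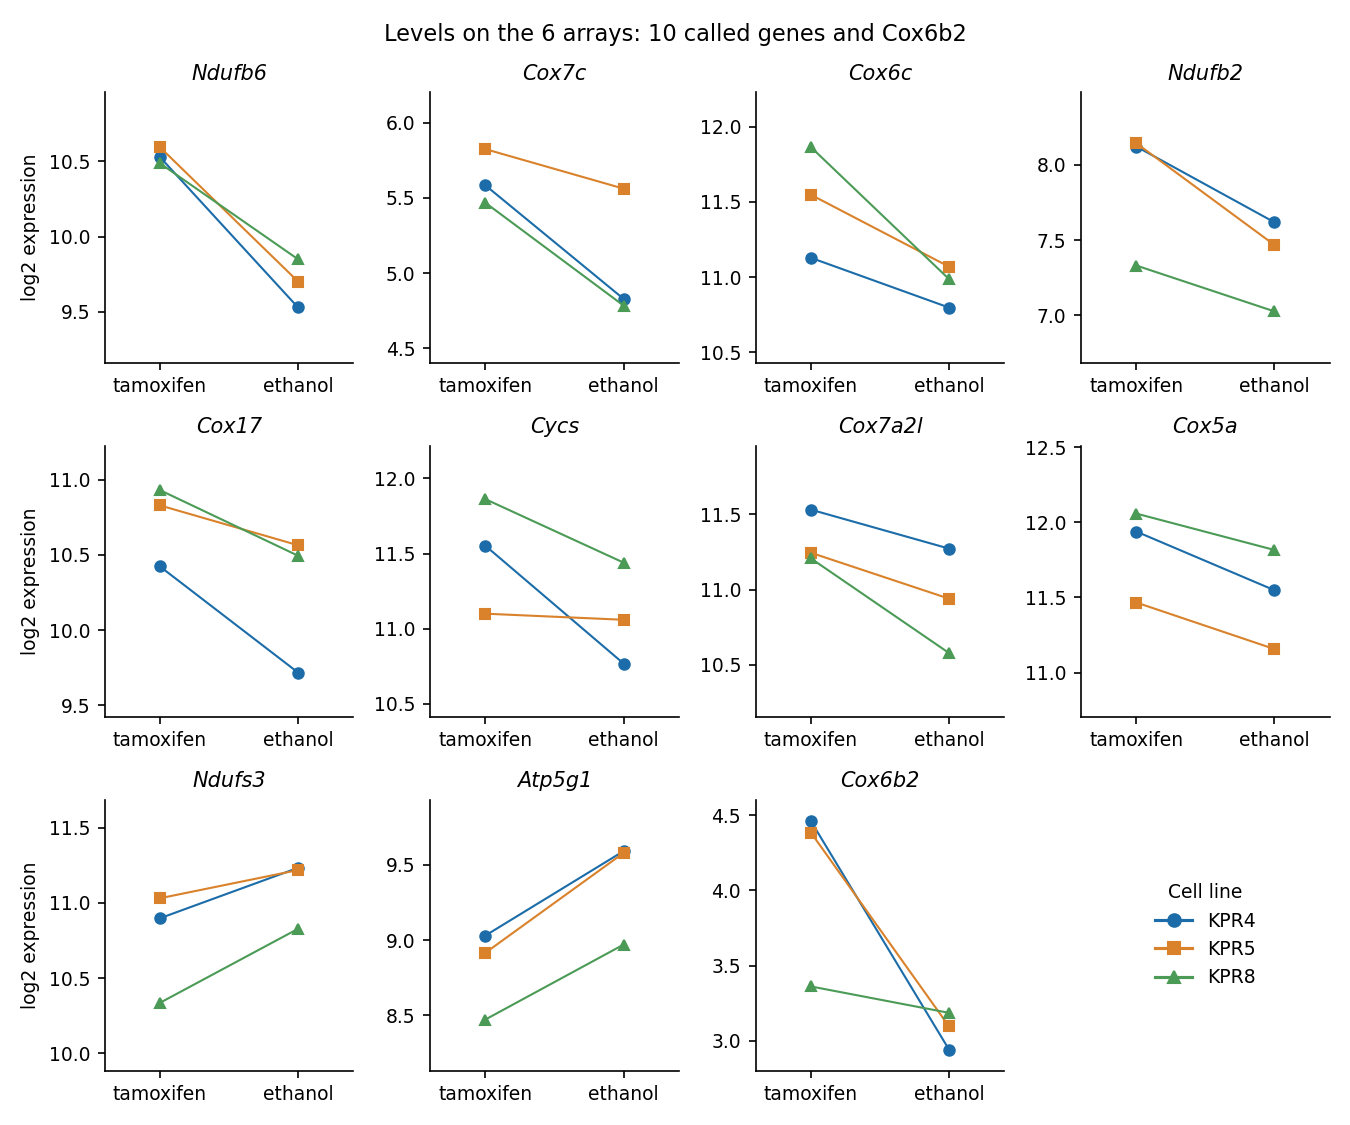
Log2 expression on the 6 arrays of the 10 genes past the threshold and of Cox6b2, which lay under the expression filter. Each coloured line joins the tamoxifen array (left) and the ethanol array (right) of 1 cell line. In the panel for Ndufb6 the 3 treated arrays lie between 10.49 and 10.59, above the ethanol arrays at 9.53 to 9.85.

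Ndufb2, another accessory subunit of the membrane arm, had 8.12, 8.14 and 7.33 with tamoxifen, against 7.62, 7.47 and 7.03 with ethanol. The groups overlapped because KPR8 was low under both treatments, but each line was higher with the drug. The change was 0.50 ± 0.16 (adjusted p = 0.042), and 0.50 on its other probe set. Ndufs3, a core subunit of the arm that holds the iron-sulfur clusters, had 10.90, 11.03 and 10.34 with tamoxifen, against 11.23, 11.22 and 10.83 with ethanol. It fell by 0.34 ± 0.11 on the log2 scale (adjusted p = 0.048), with overlapping groups and a decrease in each line. Both calls ended with any 1 line left out. The changes were then 0.49 (without KPR4, adjusted p = 0.174), 0.40 (without KPR5, 0.217) and 0.59 (without KPR8, 0.0553) for Ndufb2. For Ndufs3 they were -0.34 (0.206), -0.41 (0.066) and -0.26 (0.144) in the same order.

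The remaining complex I subunits ranged from Ndufb10 at -0.27 to Ndufab1 at 0.38. Ndufab1, the mitochondrial acyl carrier protein, lay just outside the threshold (0.38 ± 0.13, adjusted p = 0.051). It had 9.96, 9.95 and 10.06 with tamoxifen, against 9.45, 9.72 and 9.68 with ethanol, without overlap. Ndufv2, a subunit of the NADH-oxidising module, was at 0.16 on its brightest probe set and at -0.33 on another. Ndufb1 lay between 2.95 and 3.46 on each array, under the filter. Over the 32 genes the median change was 0.03, with 15 below 0.

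Of 5 measured complex I assembly factors 0 passed the threshold in limma, where 19.5% of all genes did. At an unadjusted p under 0.05, 1 was lower, where 15.4% of all genes were. That gene, Ndufaf4, had a change of -0.39 ± 0.15 (adjusted p = 0.092) and was also below its ethanol level in each line. Its other probe set gave -0.48, and with the mean of both Ndufaf4 passed the threshold, at -0.43 (adjusted p = 0.0491). Ndufaf1 had the highest value of the 5, at 0.12 ± 0.17.

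Complex II, succinate dehydrogenase, which also belongs to the citric acid cycle, had 0 of 4 subunits past the threshold in limma, where 19.5% of all genes passed. At an unadjusted p under 0.05 it had 0 higher and 0 lower, where 17.4% and 15.4% of all genes were. Sdha, the flavoprotein, averaged 10.27 ± 0.42 with tamoxifen and 10.25 ± 0.35 with ethanol (SD, n = 3), a difference of 0.02 ± 0.12 (SE). Sdhb, the iron-sulfur subunit, was at -0.12 ± 0.14, and the membrane anchors Sdhc and Sdhd were at -0.20 ± 0.16 and 0.03 ± 0.12. A dimmer probe set of Sdhd gave -0.36.

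Complex III, which passes electrons from coenzyme Q to cytochrome c, had 0 of 9 genes past the threshold in limma, where 19.5% of all genes passed. At an unadjusted p under 0.05, 1 was higher, where 17.4% of all genes were. Uqcrb was the highest, at 0.25 ± 0.09 (adjusted p = 0.081), and 0.06 on its other probe set. Cyc1, the cytochrome c1 subunit, was the lowest, at -0.29 ± 0.15 (adjusted p = 0.207). Its level in KPR8 was 9.21 with tamoxifen against 9.92 with ethanol, while with tamoxifen KPR4 had 9.06 and KPR5 9.74, against 9.08 and 9.87 with ethanol.

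Cycs encodes somatic cytochrome c, which carries electrons to complex IV and, when released, triggers caspase activation on Apaf1. It had 11.55, 11.10 and 11.86 with tamoxifen, against 10.77, 11.06 and 11.44 with ethanol. The lines differed by 0.78 (KPR4), 0.04 (KPR5) and 0.42 (KPR8) between treatments, so the groups overlapped, and the fitted change was 0.42 ± 0.13 (adjusted p = 0.036). It was not seen on the other probe sets of the gene, which gave -0.21 and 0.11 at mean levels of 10.79 and 10.01, against 11.30 for the one read, and with the mean of all 3 the change was 0.10 (adjusted p = 0.602). Leaving out KPR4 gave 0.23 (adjusted p = 0.404) and leaving out KPR8 gave 0.41 (adjusted p = 0.161), and the call was lost in both, while leaving out KPR5 gave 0.60.

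Complex IV, cytochrome c oxidase, had 3 of 10 subunit genes higher and 0 lower, and its assembly and supercomplex genes had 2 of 7 higher and 0 lower. At an unadjusted p under 0.05 in limma, 3 were higher and 0 lower in each of these groups, where 17.4% and 15.4% of all genes were. Cox6c, a small membrane subunit, had 11.13, 11.55 and 11.86 with tamoxifen, against 10.80, 11.07 and 10.99 with ethanol. The groups did not overlap, and KPR8 showed the largest rise, 0.88, against 0.33 in KPR4 and 0.48 in KPR5. The change was 0.56 ± 0.12 (adjusted p = 0.0039) and it remained past the threshold with any 1 line left out (0.40 to 0.68). Its second probe set, however, gave 0.11, and the mean of both gave 0.34 (adjusted p = 0.0594).

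Cox7c, another small subunit, was dim, at 5.58, 5.82 and 5.47 with tamoxifen, against 4.83, 5.56 and 4.78 with ethanol. Its change was 0.57 ± 0.17 (adjusted p = 0.029), largest in KPR4 and KPR8, and 0.47 without KPR4 (adjusted p = 0.190) and 0.51 without KPR8 (adjusted p = 0.135). Cox5a, which with Cox5b lies on the matrix side, had 11.94, 11.47 and 12.06 with tamoxifen, against 11.55, 11.16 and 11.82 with ethanol. The change was 0.31 ± 0.10 (adjusted p = 0.037). Of its other probe sets 1 gave 0.24 and 1 gave -0.16, the mean of all gave 0.13 (adjusted p = 0.339), and the call was lost when KPR4 (0.28, adjusted p = 0.276), KPR5 (0.32, 0.108) or KPR8 (0.28, 0.109) was left out.

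Among the helpers of complex IV, Cox17 is the copper chaperone that supplies the metal to the enzyme. It had 10.42, 10.83 and 10.93 with tamoxifen, against 9.72, 10.56 and 10.49 with ethanol, a change of 0.47 ± 0.12 (adjusted p = 0.015). Averaged with a second probe set near background it was 0.22 (adjusted p = 0.265). The rise was larger in KPR4 (0.71) than in KPR5 (0.27) or KPR8 (0.44), a difference that could not be tested, and leaving out KPR4 (0.35, adjusted p = 0.197) or KPR8 (0.49, 0.0649) lost the call. Cox7a2l, a factor that joins complexes III and IV into a supercomplex, had 11.53, 11.24 and 11.21 with tamoxifen, against 11.27, 10.94 and 10.58 with ethanol. Its 3 probe sets gave 0.40, 0.34 and 0.34, with an adjusted p of 0.023 on the first. Without KPR4 the change was 0.47 (adjusted p = 0.0502) and without KPR8 0.28 (adjusted p = 0.105). Of the other assembly genes, Cox19 was at 0.40 ± 0.17 (adjusted p = 0.104) with groups that did not overlap, and Cox18, which inserts a mitochondrially encoded subunit, was the lowest at -0.13. Cox15, needed to make haem A, was at 0.17 on its brightest probe set and -0.32 on another.

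**Figure D4:**
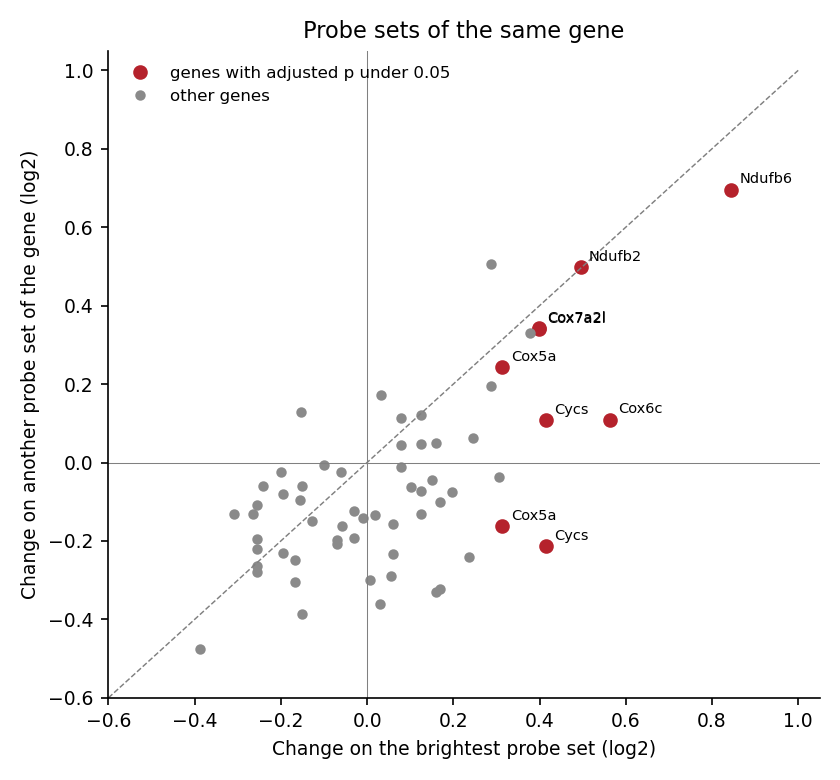
Change with 4-OH tamoxifen minus ethanol on the log2 scale, on the brightest probe set of a gene (horizontal) and on another probe set of the same gene that passed the expression filter (vertical). Each point is 1 of 63 such probe sets from 43 genes, red marks genes past the threshold, and the dashed line is equality. Ndufb6, Ndufb2 and Cox7a2l lie near the line, while Cox6c lies at 0.11 on its second probe set and Cycs at 0.11 and -0.21.

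Other probe sets were available for 43 of the members tested. Of these 63 probe sets 43 had the same sign of change as the brightest one and 20 the opposite sign. Except for Cox8a (-0.15 on the brightest, 0.13 on the other), all of these 20 had the brightest above 0 and the other below. In 9 of those 20 the changes of the 2 probe sets lay log2 0.3 or more apart, and in 3 (of Ndufv2, Cox15 and Sdhd) the other probe set itself was past 0.3. With probe sets averaged, 4 members were higher and 3 lower, where 614 and 629 of 7221 genes were. The changes of 53 of 84 members were then below 0, against 47 of 85 on the brightest probe sets. Among the 10 genes past the threshold, Ndufb6, Ndufb2 and Cox7a2l gave changes on every probe set past the filter that were close to the first. Cox6c, Cycs and Cox5a did not. Atp5g1 and Ndufs3 have 1 named probe set, and the second ones of Cox17 and Cox7c lay under the filter.

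Several complex IV subunits exist as a widely expressed isoform and one known from particular tissues. Here the widely expressed ones changed little: Cox4i1 was at 0.12 ± 0.11, Cox6a1 at -0.06 ± 0.09, Cox6b1 at 0.20 ± 0.10, Cox7a2 at -0.10 ± 0.09 and Cox8a at -0.15 ± 0.15. All were bright except Cox8a, whose mean level was 7.73, where the median over all genes tested was 7.15. Another probe set gave the opposite sign for Cox6b1 (-0.08) and for Cox8a (0.13). Cox4i2, known from lung and hypoxia, lay between 2.50 and 2.70, no brighter than the bacterial controls. The muscle isoforms Cox6a2, Cox7a1 and Cox8b lay between 2.72 and 4.03, and the testis isoform Cox8c between 2.82 and 2.97. Ndufa4, first assigned to complex I and now counted as a complex IV subunit, was at -0.24 ± 0.12 (adjusted p = 0.174).

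Cox6b2, the testis isoform of a subunit that joins the monomers of the complex IV dimer, had the largest change of the members under the filter. It had 4.46, 4.38 and 3.36 with tamoxifen, against 2.94, 3.10 and 3.19 with ethanol. The groups did not overlap, with rises of 1.52 in KPR4 and 1.29 in KPR5 but 0.18 in KPR8. When limma was run on every gene, the change was 0.99 ± 0.20 (adjusted p = 0.0079). Since the ethanol arrays lay near background, a fold for this gene is approximate. In the same fit Cox7a1, higher in each line, was at 0.34 ± 0.12 (adjusted p = 0.084).

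ATP synthase had 17 genes tested, of which 1 fell and 0 rose, together 5.88%, against 19.5% of all genes. At an unadjusted p under 0.05 in limma 1 was higher and 3 lower, where 17.4% and 15.4% of all genes were. Atp5g1 is 1 of 3 genes for subunit c, the ring that turns as protons pass. It had 9.03, 8.92 and 8.47 with tamoxifen, against 9.59, 9.58 and 8.97 with ethanol. Each line was lower, by 0.56, 0.66 and 0.50, and the groups overlapped only because KPR8 with ethanol was below KPR4 with tamoxifen. The change was -0.57 ± 0.14 (adjusted p = 0.0081), and leaving out KPR5 gave -0.53 (adjusted p = 0.0565).

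The other genes for subunit c, whose mature protein is the same, were also below their ethanol level but did not pass. Atp5g2 had 8.70, 8.69 and 8.51 with tamoxifen, against 8.92, 9.25 and 8.81 with ethanol, without overlap, a change of -0.36 ± 0.14 (adjusted p = 0.092). Atp5g3 was at -0.17 ± 0.10 (adjusted p = 0.229). Atp5a1 and Atp5b were at -0.15 ± 0.10 and -0.05 ± 0.10, and the other probe sets of Atp5a1 gave -0.39 and -0.06. Atp5c1, the central stalk, was at -0.31 ± 0.11 (adjusted p = 0.066). The highest was Atp5pb, of the outer stalk, at 0.24 ± 0.09 (adjusted p = 0.095), while its other probe set gave -0.24 ± 0.10. In all, 14 of the 17 were below 0 with a median of -0.10, where 49.8% of all genes were below 0. The count was 15 of 17 with arrays centred on their medians and with quantile normalization.

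Counting members whose treated and ethanol arrays did not overlap gave 5 higher and 4 lower of 85, where 7.48% and 8.2% of all genes did so. The higher ones were Ndufb6, Ndufab1, Ndufa1, Cox6c and Cox19, and the lower ones Atp5a1, Atp5d, Atp5g2 and Ndufaf5.

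Other genes of the same pathway were read from 4 lists. Assembly factors outside the naming rule had 2 of 30 higher and 2 lower, together 13.3%, against 19.5% of all genes. Cmc2, a factor of complex IV biogenesis, had 6.42, 7.15 and 6.23 with tamoxifen, against 7.45, 7.95 and 7.25 with ethanol. The groups did not overlap, and it fell by 0.95 ± 0.16 (adjusted p = 0.00088), or by 0.55 with the mean of its 3 probe sets (adjusted p = 0.020). Fmc1, an ATP synthase assembly factor, fell by 0.61 ± 0.18 (adjusted p = 0.024). Higd2a, of complex IV and supercomplex assembly, rose by 0.45 ± 0.14 (adjusted p = 0.039), and Coa5 by 0.38 ± 0.13 (adjusted p = 0.0498). Sco2 was at 0.09 ± 0.18 (adjusted p = 0.783): it had 6.75, 6.52 and 6.53 with tamoxifen, against 6.28, 6.62 and 6.64 with ethanol, so KPR4 alone was higher with the drug.

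Enzymes that feed electrons to coenzyme Q, genes of coenzyme Q synthesis and carriers of ADP and ATP had 1 of 22 higher and 2 lower. Together these were 13.6% of the list, against 19.5% of all genes. Gpd2, the mitochondrial glycerol-3-phosphate dehydrogenase, fell by 0.39 ± 0.12 (adjusted p = 0.034), and Dhodh, of pyrimidine synthesis, by 0.57 ± 0.19 (adjusted p = 0.044). Sqor, which oxidises sulfide, rose by 0.48 ± 0.13 (adjusted p = 0.018), but with the mean of its probe sets its change was 0.06 (adjusted p = 0.802).

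Regulators of mitochondrial biogenesis and mitochondrial DNA had 2 of 21 higher and 2 lower, together 19%, against 19.5% of all genes. Pprc1, a coactivator of respiratory genes related to PGC-1, had 6.79, 7.36 and 6.57 with tamoxifen, against 7.33, 8.44 and 7.77 with ethanol. It was lower in each line and fell by 0.94 ± 0.18 (adjusted p = 0.0016), a call that held with any 1 line left out (-1.14 to -0.81), as did that of Cmc2 (-1.02 to -0.91). Polg, the polymerase of mitochondrial DNA, fell by 0.62 ± 0.17 (adjusted p = 0.019), but with the mean of its probe sets its change was -0.38 (adjusted p = 0.066). Mterf2 rose by 0.56 ± 0.18 (adjusted p = 0.042), and the nuclear receptor gene Esrra, near background, by 0.51 ± 0.15 (adjusted p = 0.027). Esrra had 4.22, 4.59 and 4.04 with tamoxifen, against 3.54, 3.99 and 3.80 with ethanol. It thus passed the filter only through its tamoxifen arrays, and its count among the higher genes depends on that. With limma run on every gene its adjusted p was 0.037. Tfam, which packages mitochondrial DNA, was at -0.35 ± 0.15 (adjusted p = 0.120), and Ppargc1a, encoding PGC-1 alpha, at -0.27 ± 0.19 (adjusted p = 0.351).

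Of the 11 list genes past the threshold, 9 lost their call with at least 1 line left out. Calls over all genes fell too, from 805 higher and 683 lower to 542 and 444 without KPR4. They were 526 and 438 without KPR5, and 600 and 413 without KPR8. Without KPR4, the list genes that lost it were Coa5 (0.34, adjusted p = 0.279), Fmc1 (-0.44, 0.251), Higd2a (0.57, 0.0556), Gpd2 (-0.35, 0.231), Sqor (0.51, 0.102) and Esrra (0.42, 0.173). Without KPR5, Coa5 (0.45, 0.0801), Fmc1 (-0.65, 0.064), Higd2a (0.37, 0.196), Gpd2 (-0.38, 0.129), Dhodh (-0.60, 0.0981), Sqor (0.41, 0.117), Esrra (0.46, 0.102), Polg (-0.65, 0.056) and Mterf2 (0.51, 0.158) lost it. Without KPR8, Coa5 (0.35, 0.130), Higd2a (0.40, 0.134), Dhodh (-0.33, 0.287), Polg (-0.50, 0.110) and Mterf2 (0.40, 0.231) lost it.

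The genes of the mitochondrial ribosome, which translates the subunits encoded in mitochondrial DNA, were set beside the members. Of 74 measured genes 0 rose and 5 fell (6.76%), where 10.5% and 8.94% of all genes did, and 64 were below 0 with a median of -0.20. Respiratory chain and ATP synthase genes had 47 of 85 below 0 and a median of -0.03. No test was made of that difference. At an unadjusted p under 0.05, limma had 0 ribosomal genes higher and 12 of 74 lower, beside the 15.4% of all genes.

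Promoter sequence from RefSeq (GRCm38.p6) was matched for 75 of the 92 members, as 300 bases from 250 before to 50 after the annotated start. Both strands were searched for GCGCA, any base and GCGC in a row, the site of NRF1, a known activator of respiratory genes, for CCGGAAG, read by ETS factors such as GABP, and for GGGCGG, read by SP1. Overlapping matches were each counted. The NRF1 letters were present in 20% of the members and 4.78% of 27025 promoters, the ETS letters in 26.7% and 9.12%, and the SP1 letters in 48% and 35.9%. Of the 8 promoters of members past the threshold 0 held the NRF1 letters, against 15 of 63 of the other members tested. A pair of p53 half-sites was found in 0 of 75 windows and in 0.0592% of all. A match is only a description of these letters.

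Shown are Ndufb6 and Atp5g1, with the largest rise and the largest fall among the 85 members tested, and Cox6a1, with a change of -0.06 and a window that carries the NRF1 letters. The capitals mark matches to the 3 motifs. Ndufb6 lies at chr4:40279372-40279671, Atp5g1 at chr11:96075582-96075881 and Cox6a1 at chr5:115348909-115349208, each on the minus strand.
Ndufb6: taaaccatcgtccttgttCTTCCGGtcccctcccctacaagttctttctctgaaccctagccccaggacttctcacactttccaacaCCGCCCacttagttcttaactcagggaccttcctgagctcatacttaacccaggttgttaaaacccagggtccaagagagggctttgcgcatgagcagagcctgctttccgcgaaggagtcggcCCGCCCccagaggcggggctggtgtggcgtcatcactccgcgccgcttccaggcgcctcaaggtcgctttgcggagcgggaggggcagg
Atp5g1: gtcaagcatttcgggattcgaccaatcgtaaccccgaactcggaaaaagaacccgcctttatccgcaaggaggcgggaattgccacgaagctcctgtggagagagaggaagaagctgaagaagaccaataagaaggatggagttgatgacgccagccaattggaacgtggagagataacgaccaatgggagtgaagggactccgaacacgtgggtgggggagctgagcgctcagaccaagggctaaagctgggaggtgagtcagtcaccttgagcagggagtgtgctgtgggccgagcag
Cox6a1: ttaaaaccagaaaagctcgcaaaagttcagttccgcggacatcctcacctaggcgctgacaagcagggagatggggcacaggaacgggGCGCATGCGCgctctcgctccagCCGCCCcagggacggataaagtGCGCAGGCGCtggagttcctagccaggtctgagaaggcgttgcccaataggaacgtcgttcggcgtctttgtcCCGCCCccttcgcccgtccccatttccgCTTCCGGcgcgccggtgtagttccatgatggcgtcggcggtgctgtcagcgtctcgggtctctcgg
The Ndufb6 window held 1 ETS and 2 SP1 matches, that of Atp5g1 held 0 of any kind, and that of Cox6a1 held 2 NRF1, 1 ETS and 2 SP1 matches.

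The lines themselves differed in more members than the treatment changed. In limma's F-test 39 of 85 members, 45.9%, differed between lines, against 42% of all genes. The range between line means exceeded the treatment change for 75 of the 85 members (88.2%) and for 79.7% of all genes, and a range over 3 means tends to exceed a difference of 2. Members had a median range of 0.43 (all genes 0.50). KPR8 had the lowest level in 26 of the 39, including 14 of 17 complex I subunits, and was the lowest in 34.6% of all genes that differed. The count was 23 of 37 with arrays centred on their medians and 26 of 37 with quantile normalization, where 29.8% and 30.1% of all such genes were lowest in KPR8. Without KPR8, 15 members differed between KPR4 and KPR5.

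Ndufaf4 showed the widest range. Its line means over both treatments were 6.95 in KPR4, 8.49 in KPR5 and 8.47 in KPR8 (adjusted p = 1.7e-05), with KPR4 below the others on each array. Ndufv3, an accessory subunit beside the NADH-oxidising module, had means of 10.14, 9.51 and 8.90 (adjusted p = 0.00017), and the 3 lines did not overlap. Ndufa13, also known as the cell death regulator GRIM-19, had 11.82 and 11.77 in KPR4 and KPR5 against 11.02 in KPR8 (adjusted p = 0.00034).

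Ndufb10 (10.67, 10.36 and 9.84), Ndufa9 (11.05, 10.84 and 10.38) and Sdha (10.53, 10.43 and 9.82) were likewise lowest in KPR8. Ndufaf3, an assembly factor, was highest in KPR4, with 6.06 against 5.26 and 5.04. Ndufa4 had 10.72, 11.00 and 10.23. Cox5a ran the other way, with 11.74, 11.31 and 11.94, and Atp5j, of the outer stalk, was highest in KPR5 with 10.72, 11.41 and 10.95. The adjusted p of these 7 lay between 0.0012 and 0.0043.

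**Figure D5:**
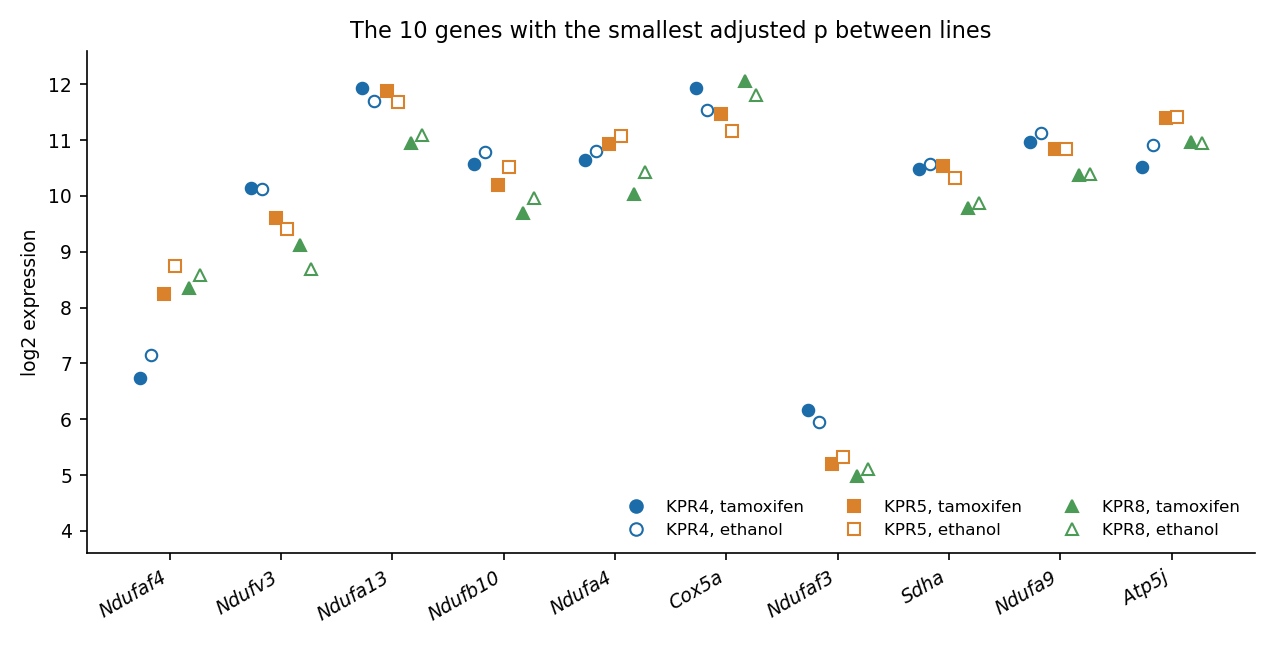
Log2 expression of the 10 members with the smallest adjusted p in the F-test between lines. Colour and shape give the line, filled points are tamoxifen arrays and open points ethanol arrays. Ndufaf4 is lowest in KPR4 at 6.74 and 7.16, and Ndufv3, Ndufa13, Ndufb10, Ndufa4, Ndufaf3, Sdha and Ndufa9 are lowest in KPR8 by line mean.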

How the data were processed

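Expression on 6 arrays was deposited by the authors as log2 values, 1 per probe set. The submitters' processing notes name GCRMA 2.20.0 and R 2.11.0 for this step. GCRMA subtracts a sequence-based background and normalizes between arrays, so a shift shared by most genes would not show. Detection calls were not used here, and the number of arrays limits the precision.

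Probe sets with several symbols were left out, 9 of which touch the naming rule. Probe sets whose names end in _s_at or _x_at can bind transcripts of other genes, which may be so for Cox17, Cox7c and Cox7a2l. Gene symbols are those of the platform annotation, and 20351 of 20380 named probe sets matched the GRCm38.p6 table by Entrez identifier, with 0 symbols changed.

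Changes are tamoxifen minus ethanol from limma 3.58.1 in R 4.3.3, with cell line and treatment as terms, variances moderated with a trend (prior 12.85 and residual 2 degrees of freedom), 2-sided p-values and Benjamini-Hochberg adjustment over 7644 genes. Errors of changes are standard errors of that fit. The 3 lines are the replicates. Simulated data for this comparison over 7644 genes held 200 changed genes. The fit recovered 0% of changes of log2 0.25, 44% at 0.5, 98% at 1 and 100% at 2, with 13 false among 134 calls. The data themselves gave 1488 calls, so a call in the simulation needed a smaller p. These shares are therefore not the recovery rates of the data, in which small changes can still go uncalled. Both arrays of a line come from the same cells, and their deviations from group means correlated at 0.876, 0.737 and 0.761 in KPR4, KPR5 and KPR8. The members, lists and tests were chosen with earlier results of these data known. Genes named in the text are those past the threshold, the extremes of each complex, isoform families, the 10 members that differ most between lines, members with another probe set of opposite sign and a size of log2 0.3 or more, and members under the filter. Beyond the members, list genes past the threshold are named, and Sco2, Tfam and Ppargc1a in any case. A few further genes were added after their values were seen: Ndufab1, Ndufa1, Ndufaf5, Cox19, Atp5a1, Atp5b, Atp5c1 and Atp5d.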

Additional observations from a re-analysis of the deposited data

How the results depend on the processing

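The counts of members rest on comparing arrays of the same line. With no replicate block, limma called 22 of 7644 genes higher and 1 lower, and 0 members higher and 0 lower, with 2 and 0 at an unadjusted p under 0.05, and 0 higher and 0 lower among the other pathway genes, with 1 and 6 unadjusted. The 8 higher members became 4 when probe sets were averaged and 4 with moderation without a trend. The 2 lower members became 1 without a filter, 1 without a trend and 1 with quantile normalization. The 5 other pathway genes that were higher became 2 without a filter and 3 without a trend. With 1 line left out, 2 (without KPR4) to 6 (without KPR5) members were higher and 1 was lower. By the same measure 15 (without KPR8) to 28 (without KPR5) differed between lines. Other pathway genes numbered 0 (without KPR5, with 7 at an unadjusted p under 0.05) to 3 higher, and 2 to 5 lower. The median change of members then ran from -0.07 to -0.00. Of the 10 called members, 3 remained without KPR4, 6 without KPR5 and 3 without KPR8. Calls over all genes also fell with a line left out, from 805 higher and 683 lower to 542 and 444 without KPR4. The counts were 526 and 438 without KPR5, and 600 and 413 without KPR8. Ndufb6 held under each alternative other than the model with no replicate block (adjusted p = 0.0999).

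Some changes reversed their sign, and not all of them were near 0. With probe sets averaged, Atp5pb went from 0.24 to -0.0028, Cox15 from 0.17 to -0.044 and Cox8a from -0.15 to 0.0013. Ndufv2 went from 0.16 to -0.040 and Ppargc1a from -0.27 to 0.016. Sdha went from 0.02 to -0.057 and Sdhd from 0.03 to -0.17. With 1 line left out, the change ran from -0.20 to 0.0022 for Atp5j, -0.12 to 0.0055 for Cox6a1, -0.12 to 0.048 for Ndufaf3, -0.022 to 0.39 for Ndufv2, -0.11 to 0.19 for Sco2, -0.081 to 0.073 for Sdha and -0.019 to 0.085 for Sdhd. None of these genes was past the threshold for treatment in these settings, and the cause was not tested. Low signal limits Cox6b2 and the other isoforms near background.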

Other observations

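Among the enzymes that pass electrons to coenzyme Q, Sqor, which oxidises hydrogen sulfide, stood apart between the lines far more than with treatment. Its level was 11.27, 9.75 and 8.52 in KPR4, KPR5 and KPR8 with tamoxifen, against 10.85, 9.14 and 8.12 with ethanol. KPR4 was thus the highest and KPR8 the lowest under both treatments (limma F-test between lines, adjusted p = 2.5e-08). The striated muscle marker Tnnt2, cardiac troponin T, was bright in these tumour lines: it had 8.60, 10.84 and 10.78 with tamoxifen, against 9.49, 11.06 and 10.80 with ethanol. Each of the other 5 muscle markers lay at 3.49 or below on each array.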
